A study of Drosophila melanogaster with 8 samples.

Results

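The proteasome subunit genes of Drosophila melanogaster were taken as every row of the count table whose gene name begins with Prosalpha, Prosbeta, Rpn or Rpt followed by a digit. This gave 47 of 17473 genes. They comprised 24 genes of the core particle, named Prosalpha or Prosbeta, and 23 genes of the regulatory particle, named Rpn or Rpt. Of the 47, 32 were the subunits themselves and 15 were paralogs, marked by a T or an R after the subunit number. The subunits were 7 alpha and 7 beta genes of the core, and 12 Rpn and 6 Rpt genes of the regulatory particle.

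RNA labelled as from intestinal stem cells, the dividing cells of the fly midgut, was sequenced in 8 libraries. The series addresses how these cells respond when mitochondrial oxidative phosphorylation is disrupted and what FOXO, a transcription factor of the insulin pathway, contributes. The 4 groups of 2 replicates carried control mtDNA (C), mutant mtDNA (M), control mtDNA with FOXO knockdown (FC) and mutant mtDNA with FOXO knockdown (FM). All 8 libraries were made from RNA recovered on anti-FLAG beads with the poly(A)-binding protein (pAbp), and the labels name neither the mtDNA mutation, nor the driver of the tagged protein or of the knockdown, nor the age of the flies. Nothing in the labels says whether replicates came from separate animals, so p-values measure the spread between libraries, which may be technical.

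The proteasome degrades proteins that carry a ubiquitin chain. In its barrel-shaped core, rings of alpha subunits guard the entrance and rings of beta subunits hold the proteolytic sites, while the regulatory particle binds the ubiquitin chain, removes it, and unfolds and feeds in the substrate. The regulatory particle has a base, with a ring of ATPases (Rpt) and scaffold and receptor subunits, and a lid that includes the deubiquitinase. In stem cells and other dividing cells the complex also clears cell cycle regulators.

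Total counts were 21133996 to 39327066 per library, but counts on genes named as rRNA took 18.5% in C replicate 1 and 31.0% in M replicate 1 against 79.8% to 84.0% in the other 6 libraries. C1 and M1 (group and replicate) are called the low-rRNA libraries and the rest the high-rRNA libraries. Both groups labelled FOXO knockdown held only high-rRNA libraries. All comparisons of groups therefore come from an edgeR fit with 1 mean per group and a term for this library class, and the fit with group means only is given beside it. The class term is estimated from C and M alone, so a comparison of knockdown with none depends on it. The foxo transcript had 43.3 to 66.6 CPM (counts scaled to the library size) over the 8 libraries and 48.1 to 53.1 CPM in the 4 libraries labelled FOXO knockdown. The low-rRNA libraries C1 and M1 had 43.3 and 49.8 CPM. C2 and M2, of the same high-rRNA class as those 4, exceeded each of them, at 61.9 and 66.6 CPM. All 6 progenitor markers (such as esg and Dl) were at 1 CPM or more in every library, with a sum of 51.0 to 101.5 CPM. All 6 enterocyte markers were too, at 3771 to 9344 CPM, so RNA of other gut cells was present. In such RNA, fewer cells of a type and less RNA per cell cannot be told apart.

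All 32 subunits passed the filter on low counts, with 11561 genes tested in all. Per kilobase of exon, their mean levels over the 8 libraries lay between 8.10 and 26.1 CPM per kb, with Prosalpha1 apart at 1.57. Prosalpha2, an alpha ring subunit, had the highest level of the core at 26.1 ± 1.95 CPM per kb (SD, n = 8). It was followed in the core by Prosbeta2, which carries the trypsin-like site, at 17.0 ± 2.64 CPM per kb (SD, n = 8) and Prosalpha3 at 15.4 ± 4.46 CPM per kb (SD, n = 8). These SDs span both library classes, and Prosbeta2 and Prosalpha3 changed places between them. They had 17.2 and 13.1 CPM per kb in the high-rRNA libraries and 16.6 and 22.1 CPM per kb in the low-rRNA libraries. The lowest library of Prosalpha2, at 23.4 CPM per kb, was above every library of both. In the regulatory particle Rpn5, a structural subunit of the lid, had 21.4 ± 5.93 CPM per kb (SD, n = 8), Rpt1 of the ATPase ring 17.1 ± 1.74 and the lid subunit Rpn6 16.7 ± 1.34. Library by library, unscaled for length, Prosalpha2 had 23.3, 25.7, 24.8 and 23.2 CPM in C1, C2, M1 and M2, and 26.3, 25.3, 21.6 and 21.8 CPM in FC1, FC2, FM1 and FM2. Rpt1 had 26.9, 25.05, 31.2 and 23.6 CPM, and 27.6, 25.02, 24.2 and 23.3 CPM, in the same order. Rpn6 had 35.6, 37.1, 31.98 and 31.1 CPM, and 32.1, 30.8, 31.6 and 29.2 CPM. FM had the lowest group mean for all 3 genes, and Rpn6 was higher in both C libraries than in any other. Prosalpha3 was less even, with 21.1 and 21.9 CPM in C1 and M1 and 9.35 to 14.2 CPM in the other 6 libraries. In those 6 libraries the deubiquitinase Rpn11, the enzyme of the lid, spanned 13.7 to 18.9 CPM, its partner Rpn8 15.0 to 20.8 CPM and the base scaffold Rpn2 38.4 to 48.6 CPM, each range crossing all 4 groups. The lowest level per length outside Prosalpha1 was that of Prosalpha5, at 8.10 ± 4.32 CPM per kb (SD, n = 8). The order depended on the library class. In the low-rRNA libraries the lowest mean after Prosalpha1 was that of Rpn9, at 9.11 CPM per kb, with Prosalpha5 at 14.9, and Rpn5 was at 12.3 CPM per kb, below Rpt1 at 19.2. In the high-rRNA libraries Prosbeta4, at 14.5 CPM per kb, was above Prosalpha3 at 13.1. Prosalpha2 had the highest mean in both classes, at 26.2 and 26.1 CPM per kb.

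**Figure D1:**
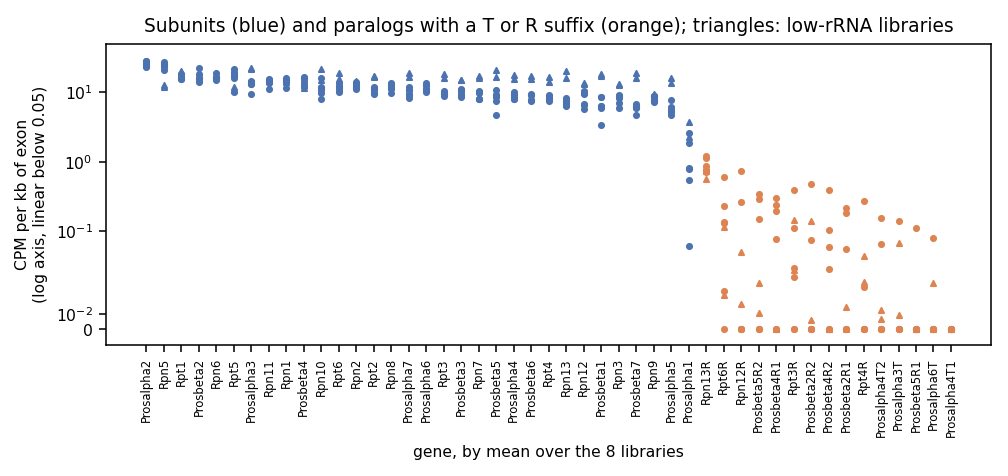
Level of each of the 47 genes in each library, in CPM per kb of exon, ordered by the mean over the 8 libraries (triangles, low-rRNA libraries; circles, high-rRNA libraries). The subunits other than Prosalpha1 have means of 8.10 to 26.1 CPM per kb. Their single libraries run from 3.33 (Prosbeta1) to 28.6 CPM per kb (Prosalpha2), and the paralogs lie below them.

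The paralogs were close to absent. In Drosophila, paralogs of this kind are known chiefly from the male germ line. Excluding Rpn13R, the other 14 had at most 16 counts and 0.869 CPM in any library, and 60 of their 112 gene and library pairs held 0 counts. A count of 0 allows up to 3 counts, which is 0.0239 to 0.192 CPM depending on the library. Prosalpha4T1 had 0 counts throughout, and the highest of the 14 was Rpt6R with 46 counts in all. Rpn13R (FBgn0029745), named after the ubiquitin receptor Rpn13, was the exception, with 12 to 78 counts and 0.621 to 1.33 CPM. Its levels in C1, C2, M1 and M2 were 0.621, 0.929, 0.788 and 1.25 CPM, and in FC1, FC2, FM1 and FM2 0.828, 0.766, 0.819 and 1.33 CPM, so the groups overlapped. The 8 germ line markers summed to 0.532 to 2.76 CPM, with ProtA at 0 counts in every library and none at 1 CPM in all of them. In M1, the library with the highest sum, vas alone had 2.20 CPM. Rpn13R, Rpt6R, Rpt3R and Prosbeta2R2 passed the filter, which brings the tested members to 36.

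**Figure D2:**
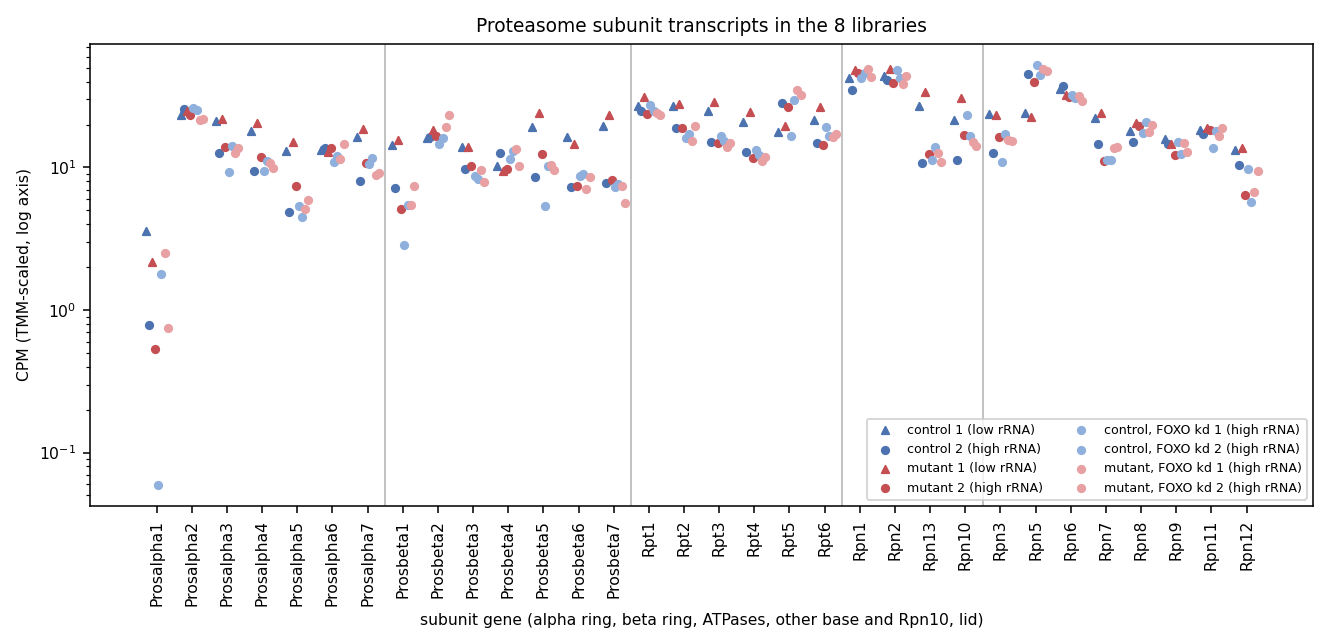
CPM of the 32 subunits in the 8 libraries on a log axis, in the order alpha ring, beta ring, ATPases, other base subunits and Rpn10, and lid (triangles, low-rRNA libraries; light colours, labelled FOXO knockdown). Many core subunits, Rpn13 and several Rpt genes have both triangles on top, Rpn5 has both at the bottom, and Prosalpha1 lies apart at 0.0592 to 3.59 CPM.

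Prosalpha1 (FBgn0263121) is reported as uncertain. It had 451, 16, 144 and 15 counts in C1, C2, M1 and M2, and 1, 28, 61 and 13 in FC1, FC2, FM1 and FM2. CG30382, a gene that the reference annotation names Prosalpha1R, had 431, 16, 132 and 15 counts, and 0, 27, 20 and 12 counts, in the same libraries. The 2 genes had nearly the same counts in 7 libraries and 61 against 20 in FM1, and how reads shared by both were assigned is not given in the sources used here. Its differences between groups had 95% intervals of at least 2.02 on either side on the log2 scale and none was called in the fit of all 8 libraries.

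Over the 6 high-rRNA libraries, which come from all 4 groups, the subunits varied little. Their coefficient of variation had a median of 11.3% and ran from 5.62% to 29.5%, with Prosalpha1 at 84.1%. The summed level of the 14 core subunits was 145 and 151 CPM in C2 and M2, 131 and 151 CPM in FC1 and FC2, and 146 and 149 CPM in FM1 and FM2. The 2 low-rRNA libraries stood above all of these, at 218 CPM in C1 and 235 CPM in M1. For the 18 regulatory subunits the sum was 380 and 379 CPM in C2 and M2, 398 and 396 CPM in FC1 and FC2, and 396 and 398 CPM in FM1 and FM2. C1 and M1 were again the highest, at 446 and 490 CPM.

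By group, the core sum was 182 ± 52.0 CPM in C, 193 ± 59.4 in M, 141 ± 13.8 in FC and 147 ± 2.26 in FM (SD, n = 2). The regulatory sum was 413 ± 46.8 CPM in C, 434 ± 79.0 in M, 397 ± 1.56 in FC and 397 ± 0.878 in FM (SD, n = 2). The higher means of C and M rested mainly on C1 and M1: in the core, C2 and M2 lay within or close to the range of the libraries labelled knockdown, and in the regulatory particle slightly below it. The mean core level per kb was 1.09 and 1.05 times the mean regulatory level in C1 and M1, and 0.774 to 0.923 times it in the high-rRNA libraries. All 32 subunits together took 0.260% and 0.25% of the counts outside rRNA in C1 and M1, and 0.199% to 0.215% in the other 6 libraries.

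**Figure D3:**
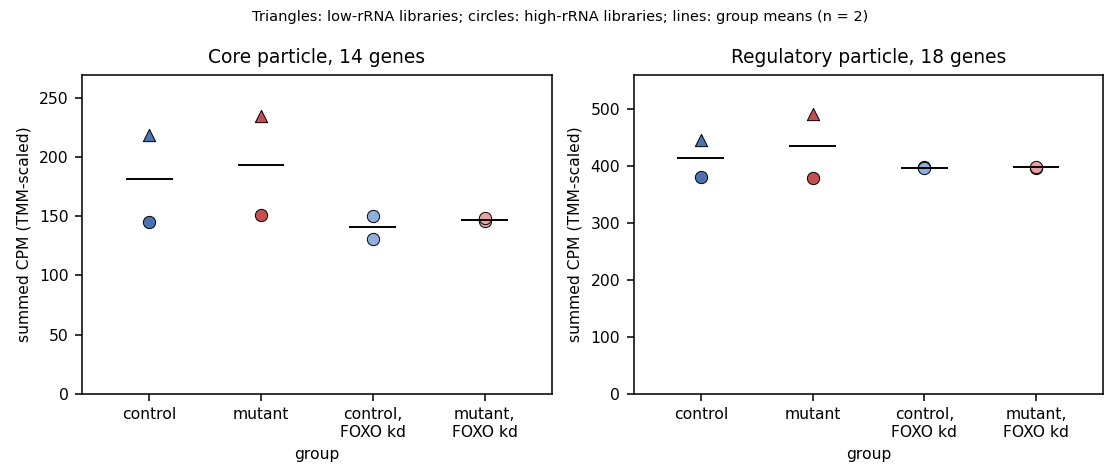
Summed CPM of the 14 core and the 18 regulatory subunits in each library by group (lines, group means, n = 2; triangles, low-rRNA libraries). The 6 high-rRNA libraries lie between 131 and 151 CPM for the core and between 379 and 398 CPM for the regulatory particle, where C2 and M2 are below the 4 libraries labelled knockdown.

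Mutant against control mtDNA without knockdown asks how the disruption of oxidative phosphorylation alters the stem cell transcriptome. No proteasome gene was called higher or lower, 0 of 36 at an edgeR adjusted p of 0.05, where 2.08% of all genes tested were called. In the core 8 of 14 subunits had a log2 difference above 0 and the median was 0.06. In the regulatory particle the count was 13 of 18 and the median 0.07, against 0.01 over all genes. All 6 ATPases lay above 0, though only by 0.01 to 0.14, while the 8 lid subunits had a median of -0.14. At an unadjusted p of 0.05 edgeR counted 2 members, Rpn10 and Rpn1, both higher in M, where 10.9% of all genes passed. DESeq2 called 0 members and 6.89% of the genes it adjusted, and edgeR with group means only called 0 members and 0% of genes. The common biological coefficient of variation was 0.472 with group means only and 0.25 with the class term, and since the former called no gene at all in any comparison of groups, its lack of calls says nothing about the members.

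Rpn1, the large scaffold of the base that binds ubiquitin-like domains, had 42.5 and 34.8 CPM in C1 and C2 and 48.4 and 46.0 CPM in M1 and M2. The groups did not overlap, and the log2 difference was 0.29 (SE 0.13, edgeR adjusted p 0.42). The FC libraries had 42.7 and 45.7 CPM and the FM libraries 49.1 and 42.9 CPM, which overlap. The 95% interval of the difference lay within 1 log2 unit on both sides for 31 of the 32 subunits, the exception being Prosalpha1. The median half-width was 0.40. These intervals are per gene and not adjusted for the number of genes, so a difference has to be larger than them to be called.

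Under labelled FOXO knockdown, mutant against control mtDNA again gave 0 of 36 members at an edgeR adjusted p of 0.05, where 0.164% of all genes tested were called. The medians were 0.10 for the core and -0.02 for the regulatory particle, against 0.03 over all genes. Prosbeta2 and Rpt5 were higher and Rpn10 lower in FM at an unadjusted edgeR p of 0.05, 3 members in all, where 8.62% of genes passed. DESeq2 called 0 members and 1.58% of the genes it adjusted, and group means only called 0 members and 0% of genes. The intervals lay within 1 log2 unit on both sides for 29 of 32 subunits, all but Prosalpha1, Prosbeta1 and Rpt5.

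**Figure D4:**
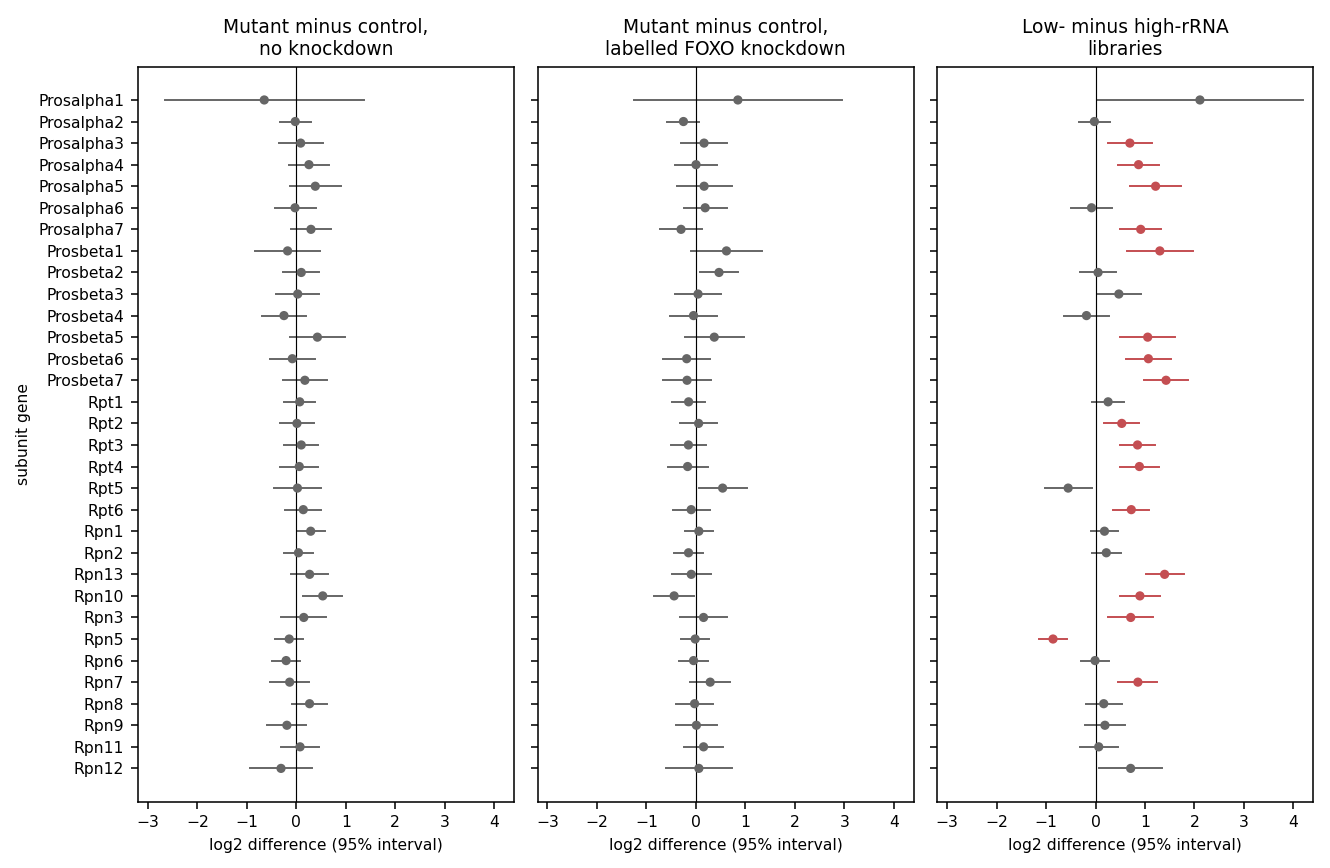
Log2 difference of each of the 32 subunits with its 95% interval, for mutant minus control mtDNA without knockdown (left) and under labelled FOXO knockdown (middle), and for low-rRNA minus high-rRNA libraries (right). Red marks an edgeR adjusted p under 0.05, which 0 subunits reach on the left and in the middle and 17 reach on the right, 16 higher and Rpn5 lower; with total-count scaling Rpn5 also turns higher.

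Prosbeta2 (FBgn0023174) had 14.7 and 16.1 CPM in FC1 and FC2 and 19.3 and 23.4 CPM in FM1 and FM2. FM was above FC without overlap, and the log2 difference was 0.47 (SE 0.17, edgeR adjusted p 0.498). Without knockdown C had 16.1 and 16.4 CPM and M 18.2 and 16.6 CPM, a log2 difference of 0.10. The annotation places 7.93% of the exon bases of Prosbeta2 opposite Reck, and the use of strand in counting is not given in the sources used here.

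Rpt5 (FBgn0028684), an ATPase of the base, had 16.6 and 29.6 CPM in FC1 and FC2 and 34.9 and 32.2 CPM in FM1 and FM2. FM was above FC, by a log2 difference of 0.54 (SE 0.22, edgeR adjusted p 0.56). In C it had 17.9 and 28.4 CPM and in M 19.7 and 26.6 CPM, so the low values were those of C1, M1 and FC1. It also had the largest regulatory difference for FM against M, at 0.28 (SE 0.25, edgeR adjusted p 0.92). Without FC2, edgeR called Rpt5 at 1.03 (adjusted p 0.0117), Prosbeta5, the chymotrypsin-like subunit, at 0.94 (adjusted p 0.039) and Prosalpha1 at 4.76 (adjusted p 0.0359), so 3 members were called on FC1 as the only FC library. In that fit 680 genes were called in all, against 19 with all libraries. Prosbeta5 had 5.32 and 10.3 CPM in FC1 and FC2 and 10.4 and 9.67 CPM in FM1 and FM2, so FC2 lay within the FM range.

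Rpn10 (FBgn0015283), a ubiquitin receptor between base and lid, had the largest differences in the regulatory particle in 3 of the 5 comparisons. It had 21.7 and 11.4 CPM in C1 and C2, and 30.7 and 16.9 CPM in M1 and M2. It had 23.2 and 16.5 CPM in FC1 and FC2, and 15.1 and 14.1 CPM in FM1 and FM2. Within each library class M exceeded C, and under labelled knockdown FC exceeded FM without overlap. The log2 difference of M from C was 0.53 (SE 0.18, edgeR adjusted p 0.215), that of FM from FC -0.44 (SE 0.19, edgeR adjusted p 0.576). Without FC1, the highest library labelled knockdown, the latter was -0.17 (edgeR adjusted p 0.889). The difference between these, the interaction, was -0.98 (SE 0.26, 95% interval -1.54 to -0.41, edgeR adjusted p 0.161).

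Rpn10 stayed short of the threshold in that fit and passed it in some others. For the interaction edgeR called 0 of 36 members, where 0.510% of genes were called, and at an unadjusted p of 0.05 it counted 2, Rpn10 and the alpha ring subunit Prosalpha7, where 9.22% of genes passed. DESeq2 called 1 member, Rpn10, at -0.99 (adjusted p 0.0474), where it called 4.07% of the genes it adjusted. It gave no adjusted p to Prosalpha1 and the tested paralogs there. Rpn10 was also called by edgeR with no filter on low counts (-0.96, adjusted p 0.0297), where 271 genes were called in all against 59 with the filter. Without FC2 its interaction was -1.18, and those of Rpt5 and Prosalpha1 were 1.00 and 5.42. Without FC1 the Rpn10 interaction was -0.71 (edgeR adjusted p 0.3), and with group means only it was -0.96 (edgeR adjusted p 1), a fit that called 0% of genes. Prosalpha7 had 16.3 and 8.02 CPM in C, 18.7 and 10.7 in M, 10.6 and 11.7 in FC and 8.88 and 9.21 in FM, with an interaction of -0.60 (SE 0.27, edgeR adjusted p 0.536).

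**Figure D5:**
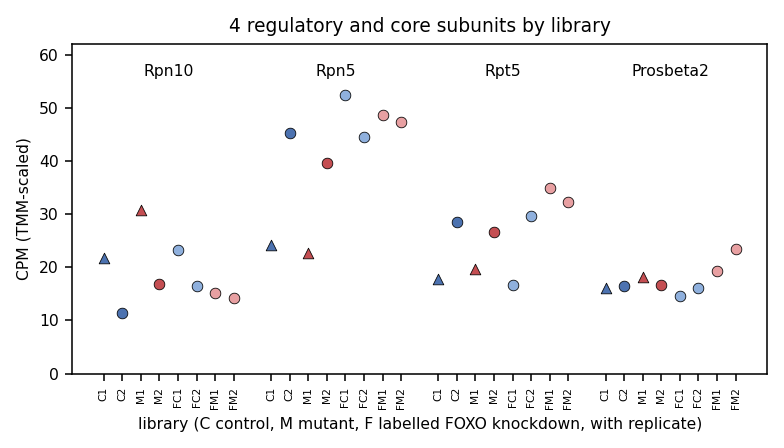
CPM of Rpn10, Rpn5, Rpt5 and Prosbeta2 in each library (triangles, low-rRNA libraries). Rpn10 is higher in M than in C within each class and lower in FM than in FC, Rpn5 is at 22.6 to 24.1 CPM in the low-rRNA libraries and 39.6 to 52.4 CPM in the others, and Rpt5 has its lowest value in FC1.

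Labelled FOXO knockdown against none, within control mtDNA, asks what FOXO contributes at baseline. EdgeR called 0 of 36 members where 0.571% of genes were called, and 1 member, Rpn10, passed an unadjusted p of 0.05, where 9.74% of genes did. Rpn10 was 0.79 higher in FC (SE 0.21, edgeR adjusted p 0.173). DESeq2 called Rpn10 alone, at 0.80 (adjusted p 0.0472), where it called 3.86% of the genes it adjusted. Without a filter on low counts edgeR called it too (0.77, adjusted p 0.0353), where 278 genes were called in all against 66 with the filter. Without FC2 the differences were 0.99 for Rpn10 and -0.73 for Rpt5. Without FC1 the Rpn10 difference was 0.52 (edgeR adjusted p 0.48). With group means only the Rpn10 difference was 0.26 (SE 0.41, edgeR adjusted p 0.863), and 0% of genes were called. Among the high-rRNA libraries with control mtDNA, C2 lay below both FC libraries.

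The largest core difference in that comparison was that of Prosbeta1 (FBgn0010590), which carries the caspase-like site. It had 14.5 and 7.19 CPM in C, 15.5 and 5.12 in M, 2.84 and 5.49 in FC, and 5.44 and 7.36 in FM. FC lay below C without overlap; with the class term the log2 difference was -0.64 (SE 0.35, edgeR adjusted p 0.594). With group means only the value was -1.39 (edgeR adjusted p 0.782). Within mutant mtDNA, labelled knockdown against none gave 0 of 36 members, where 1.90% of genes were called, and 0 at an unadjusted edgeR p of 0.05, where 10.1% of genes passed. DESeq2 called 0 members and 7.77% of the genes it adjusted, and group means only called 0 members and 0% of genes.

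With the class term the medians over the 32 subunits for labelled knockdown against none were 0.03 in control and -0.05 in mutant mtDNA, against -0.03 and 0.01 over all genes. With group means only they were -0.28 and -0.32, against -0.11 and -0.04 over all genes, and 23 and 26 of the 32 subunits lay below 0. C1 and M1, the low-rRNA libraries, are in the groups without knockdown.

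The library class itself separated the proteasome genes. Of the 36 members, 16 rose and 1 fell from the high-rRNA to the low-rRNA libraries at an edgeR adjusted p of 0.05, where 15.3% of all genes were higher and 15.0% lower. Both low-rRNA libraries lay above all 6 high-rRNA libraries for 17 of the 32 subunits, and 25.8% of all genes did so. They lay below all 6 for 1 subunit, Rpn5, as for 20.0% of all genes. The classes are not groups of the study, and the summed levels of some marker lists moved with them. The enterocyte markers summed to 6791 to 9344 CPM in the low-rRNA and 3771 to 4640 CPM in the high-rRNA libraries, and the 5 visceral muscle markers, all at 1 CPM or more throughout, to 737 to 738 CPM and 206 to 499 CPM. The members did not move alike. The enterocyte gene betaTry had 1888 and 3247 CPM in C1 and M1 and 213 to 285 CPM in the others, whereas Myo31DF had 93.3 and 100 CPM against 112 to 155 CPM. Of the muscle genes, Mhc had 481 and 496 CPM against 102 to 260 CPM, while Act57B was highest in M2. The 5 enteroendocrine markers, also at 1 CPM or more throughout, summed to 57.4 to 66.4 CPM in the low-rRNA and 65.0 to 91.2 CPM in the high-rRNA libraries. Of these, Tk had 27.1 and 26.5 CPM in C1 and M1 against 15.7 to 25.3 CPM, whereas AstC had 17.9 and 8.50 CPM against 23.1 to 44.1 CPM. The 6 progenitor markers summed to 73.1 to 101.5 CPM in the low-rRNA and 51.0 to 77.7 CPM in the high-rRNA libraries, which overlap. Dl, Pvf2 and mira were higher in both low-rRNA libraries than in any other, while esg, Sox100B and klu were not. The part of any of these cell types in the difference of the proteasome genes was not tested.

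In the core, 4 alpha and 4 beta subunits were higher in the low-rRNA libraries and the median of all 14 was 0.89, against 0.09 over all genes. Prosbeta7 had 19.6 and 23.3 CPM in C1 and M1 and 5.68 to 8.22 CPM in the other 6, a log2 difference of 1.43 (SE 0.21, edgeR adjusted p 0.000229). Prosbeta1 followed at 1.30 and Prosalpha5 at 1.21, and Prosbeta6 and Prosbeta5 were at 1.07 and 1.05. The core shift was uneven: Prosalpha2 (-0.02), Prosalpha6 (-0.08), Prosbeta2 (0.05) and Prosbeta4 (-0.18) were not called, and neither were Prosbeta3 (0.47) and Prosalpha1.

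In the regulatory particle 8 of 18 were higher and 1 lower, with a median of 0.39. The ATPases Rpt2, Rpt3, Rpt4 and Rpt6 were higher, at 0.53, 0.85, 0.89 and 0.72. Rpt1 (0.25) and Rpt5 (-0.55, edgeR adjusted p 0.0758) were not called, though DESeq2 called Rpt5 lower. Rpn13, the ubiquitin receptor of the base, had 27.2 and 34.0 CPM in C1 and M1 and 10.8 to 13.9 CPM in the others, at 1.40 (SE 0.18, edgeR adjusted p 7.7e-05). Rpn10 was at 0.90 (edgeR adjusted p 0.00254). The base scaffolds Rpn1 and Rpn2 were at 0.18 and 0.22 and not called.

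The lid went both ways. Rpn7 and Rpn3 were higher, at 0.86 and 0.71, whereas the deubiquitinase Rpn11 was at 0.07 and Rpn6 at -0.01, neither called. Rpn5 (FBgn0028690) was lower with TMM scaling, at -0.86 (SE 0.13, edgeR adjusted p 0.000315), and 0.97 with total counts, a scaling under which the median of all genes rises from 0.09 to 1.91. Its CPM were 24.1, 45.3, 22.6 and 39.6 in C1, C2, M1 and M2, and 52.4, 44.6, 48.7 and 47.3 in FC1, FC2, FM1 and FM2, so both low-rRNA libraries lay below every other library. Between the classes fewer members were called when C1, C2, M1 or M2 was left out, and fewer genes were called in all.

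The shift was also related to gene length and level across genes, which are not independent replicates. Spearman's rho with exon length was -0.26 over the 32 subunits and -0.20 over 11441 genes. With mean log2 CPM it was -0.61 over the subunits and -0.11 over all genes. The 13 subunits in the shortest quartile of all genes, up to 1167 exon bases, had a median shift of 0.71, and all 2866 genes of that quartile 0.34. In the second quartile the 16 subunits had 0.72 and all 2855 genes 0.26.

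Of 24 further genes of the pathway, all were tested and 0 were called by edgeR in any of the 5 comparisons of groups. At an unadjusted edgeR p of 0.05 the counts were 3 and 3 for mutant against control mtDNA without and with labelled knockdown, 2 for the interaction, and 4 and 5 for knockdown against none in control and mutant mtDNA. Over all genes the shares at that p were 10.9%, 8.62%, 9.22%, 9.74% and 10.1% in the same order. Their medians lay between -0.13 and -0.01. The regulator cnc, the Drosophila Nrf factor that can activate proteasome subunit genes, had 157 and 243 CPM in C, 189 and 278 in M, 186 and 198 in FC, and 207 and 217 in FM. Its difference of FM from M was -0.41 (SE 0.12, edgeR adjusted p 0.142). RpS27A, which encodes ubiquitin fused to a ribosomal protein, had 176 and 164 CPM in FC and 112 and 123 CPM in FM. FM lay below FC, by -0.53 (SE 0.11, edgeR adjusted p 0.0996), and the difference of FM from M was -0.49 (edgeR adjusted p 0.0635).

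Between the library classes 8 of the 24 were higher and 6 lower, where 15.3% of all genes were higher and 15.0% lower. Of the 5 regulators 3 were lower in the low-rRNA libraries, cnc at -0.59, rngo at -0.78 and Pngl at -0.64, the last encoding a peptide N-glycanase, and 0 were higher. The proteasome activator REG (-0.83), ntc (-2.00) and the ubiquitin shuttle Rad23 (-1.43) were lower as well. The ubiquitin genes Ubi-p63E (0.88), RpL40 (0.81) and RpS27A (0.39), the unfoldase TER94 (0.84) with its cofactor Npl4 (0.64), the deubiquitinase Uch-L5 (1.23), PI31 (0.69) and CG8858 (0.52) were higher. Sem1, a small lid subunit outside the naming rule, was at -0.28 and not called, with 9.76 to 18.7 CPM over the 8 libraries.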

How the data were processed

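The authors deposited 1 table of raw counts, whole numbers of reads per gene and library with FlyBase identifiers and names. Per the submitters' processing notes FastQC, cutadapt, HISAT2, featureCounts and limma were used, while the genome build, annotation and use of strand are not given in the sources used here, so no coordinates are given. The members, the gene lists and the class term were chosen with earlier results of these data known. The deposited counts entered edgeR 4.0.16 without change (limma 3.58.1, R 4.3.3). The filter was filterByExpr over the 4 groups, sizes were scaled by TMM, and two-sided quasi-likelihood F-tests run on all 8 libraries with group means and library class (rRNA share under or over 50%), with Benjamini-Hochberg adjustment over all 11561 genes and a threshold of 0.05. Intervals are 95% intervals of the fit. Levels are CPM on TMM-scaled sizes; exon lengths and overlaps came from an Ensembl annotation that all 47 members matched by identifier. Alternatives were group means only, 3 scalings, 2 filters, DESeq2 1.42.0, a replicate block, the 6 high-rRNA libraries and leaving out each library. The fits were tested on simulated data. The genes given library by library were those with the highest level per length, 3 in each particle, and those with the largest difference in each comparison, with any call; Rpn1, Prosalpha7, Prosbeta7, Rpn13, Rpn13R, Prosbeta5, cnc, RpS27A and Sem1 were added, as were ranges for Rpn2, Rpn8 and Rpn11, after their values were seen. Plots used matplotlib 3.10.9 and pandas 2.3.3 (Python 3.11.15).

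Counts outside rRNA were 4045799 to 32059520 per library. A count of 0 allows up to 3 counts; such floors cover counting error only, since PCR reads are not independent molecules. Same-numbered replicates of C and M deviated together across genes (r = 0.793). In C and M the replicate number and the library class divide the libraries alike, so they cannot be told apart. All other pairs of groups had r between -0.025 and -0.001, so the numbers were not taken as pairs.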

Additional observations from a re-analysis of the deposited data

How the results depend on the processing

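The count of proteasome genes called was 0 for mutant against control mtDNA without knockdown and for labelled knockdown against none in mutant mtDNA in edgeR under all alternatives run, and with DESeq2. The fit with group means only called no gene at all, so its 0 says nothing about stability. For the interaction it was 1 (Rpn10) without a filter and 1 with DESeq2, where 271 and 270 genes were called in all. For mutant against control mtDNA under labelled knockdown leaving out each library gave 0 to 3, and for labelled knockdown against none in control mtDNA 0 to 2, with 1 (Rpn10) without a filter and 1 with DESeq2. Leaving out 1 library gave a count above 0 only without FC replicate 2. This was so for the interaction, for mutant against control mtDNA under labelled knockdown and for labelled knockdown against none in control mtDNA. There FC1 is assumed to vary like the other groups, and the calls over all genes rose in each of these comparisons. Between the library classes the count of 17 became 32 with total counts, 17 with DESeq2, and 11 to 21 with each library left out. Calls over all genes changed as well, from 3499 to 8504 with total counts and 3613 with DESeq2. With each library left out, 2441 to 4738 genes were called. Total counts moved the median of all genes between the classes from 0.09 to 1.91, so the 32 are not particular to the proteasome. The replicate block added to the class term gave 0 in all 5 comparisons of groups and 15 for the class, and changed no call for a comparison of groups; Rpn10 for labelled knockdown in control mtDNA was then at 0.63 (edgeR adjusted p 0.557).

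Calls over all genes depended on the fit. For mutant against control mtDNA without knockdown 241 genes were called with the class term, 0 with group means only, 94 with total counts, 546 without a filter and 472 with DESeq2. With the class term, group means only and DESeq2 in turn, 19, 0 and 151 were called under labelled knockdown and 59, 0 and 270 for the interaction. For knockdown against none the counts were 66, 0 and 204 in control and 220, 0 and 428 in mutant mtDNA. Total counts moved the median of all genes for mutant against control mtDNA without knockdown from 0.01 to -0.25. The median over the 32 subunits ranged from -0.19 to 0.12 in that comparison, from -0.12 to 0.06 under labelled knockdown, from -0.12 to 0.09 for the interaction, and from -0.28 to 0.09 and -0.32 to 0.03 for knockdown against none in control and mutant mtDNA. Groups of 2 libraries limit precision.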
